A study of Schmidtea mediterranea with 8 samples.

Results

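Transcript levels in dissected cephalic ganglia (CNS, the bilobed planarian brain) were compared with those in amputated head fragments of the freshwater planarian *Schmidtea mediterranea*, both taken after control RNAi. All 4 control libraries of the series were used, 2 of head fragments and 2 of ganglia, of 8 libraries in all. The other 4 libraries are of ganglia after *hh* or *ptc* RNAi, 2 of each. They appear only as further dissections and in an alternative fit with all 4 groups. The head fragments came from CIW4 animals, an asexual strain, that were fed dsRNA 6 times. The ganglia came from S2F1L3F2 animals, a sexual strain, fed 12 times. Feedings were 4 days apart in both groups, and both received dsRNA to *unc-22*, a *C. elegans* gene that the planarian genome lacks. RNA input per library was 1.0 µg for head fragments and 0.2 µg for ganglia. The ganglia were cut out after a brief acid treatment of the animal, beneath a layer of gut. Tissue, strain, feedings, dissection and RNA input changed together, so their parts in any difference cannot be told apart. The labels number the duplicates but do not say that they came from separate animals, and the methods state only that they carried different indices, so every p-value measures the spread between these libraries, which may be technical.

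A head fragment contains the ganglia together with epidermis, muscle, gut, excretory tubules (protonephridia), eyes and the dividing stem cells called neoblasts. In the ganglia, neuronal cell bodies form a cortex around a neuropil of neurites and glia. Neuropeptide prohormones are cut by convertases into secreted signals, small transmitters are made by dedicated enzymes and loaded by vesicular transporters, and synaptic vesicle proteins carry out release.

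The level of a contig (an assembled transcript) is its normalized read count, the reads of a library divided by that library's size factor, a scaling number for depth. The duplicate libraries of each group are called a and b. Head libraries held 18932854 and 15864941 reads on contigs and control CNS libraries 12219750 and 12260728. Of 38634 contigs, 13494 averaged at least 100 normalized reads over both groups and were tested. A contig was called at a Benjamini-Hochberg adjusted p under 0.05 in limma and a change of more than 2-fold. By this rule 55.0% of tested contigs were called, 4418 (32.7%) higher in control CNS and 3000 (22.2%) lower. The median tested contig was 0.32 higher in CNS on the log2 scale. When changes were taken relative to that median, 3417 contigs were called higher and 3711 lower, so the balance between both directions depends on the scaling. All further values are on the deposited scaling unless stated.

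**Figure D1:**
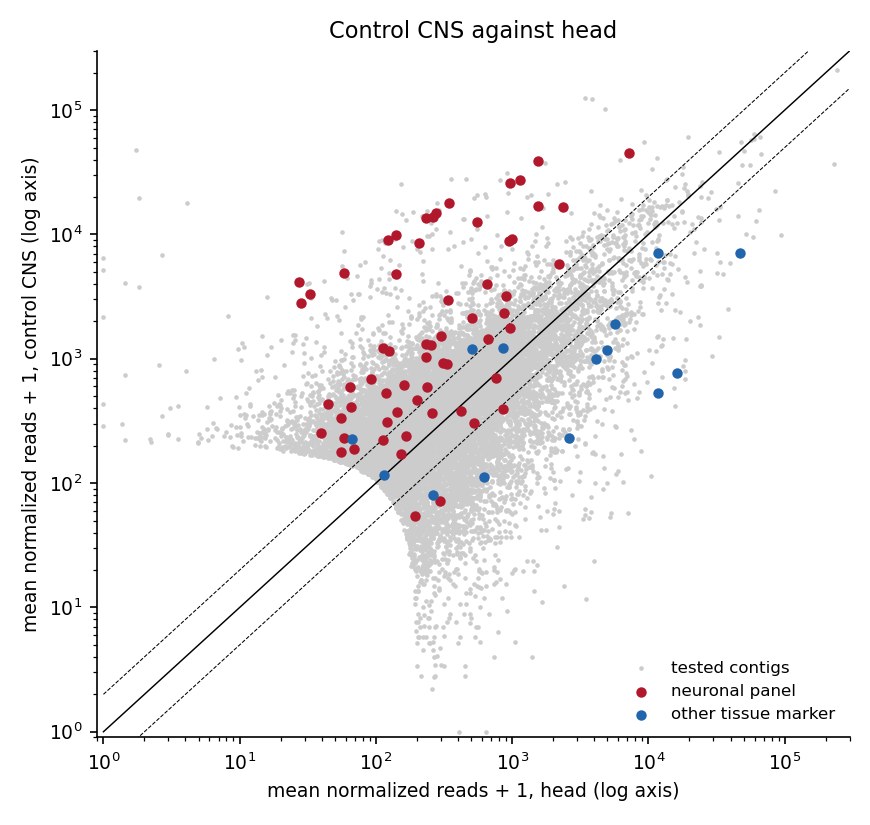
Mean normalized reads plus 1 of each of the 13494 tested contigs in head (x, log axis) and control CNS (y, log axis), with the solid line at equal levels and dashed lines at 2-fold. The 62 tested contigs of the neuronal panel (red) lie mostly above the upper dashed line, and most of the 14 tested markers of other tissues (blue) lie below the lower one.

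The tissue label was checked with 8 contigs of CNS and neuropil genes, 5 of which also belong to the neuronal panel described below. All 8 were tested and 7 were called higher in CNS, where 32.7% of all tested contigs were. Of the 8, 1 (*th*) passed the minimum only through its CNS level. In all 8 the lower of the CNS libraries exceeded the higher of the head libraries, as in 54.7% of tested contigs. *netrin 1*, which encodes an axon guidance cue, stood at 218 and 249.1 normalized reads in head and 608 and 709 in CNS. Its log2 fold change was 1.49 ± 0.12 (SE, n = 2 against 2, limma adjusted p = 0.00027). The exception was a second contig of *tph*, at 179 and 172 in head and 190.0 and 251 in CNS, with a log2 fold change of 0.32 that equals the median of all contigs.

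The neuronal panel comprised 70 contigs of genes tied to the head or nervous system. Of these, 62 were tested and 8 fell below the minimum. Among the tested contigs 51 were called higher in CNS, 3 lower and 8 neither way. Over all tested contigs 32.7% were called higher and 22.2% lower, and these shares also stand beside the counts of each panel class below. Of the tested panel contigs, 13 had a head mean under 100 normalized reads and so passed the minimum only through their CNS level. A further 2, *zic-1* and *wnt2*, passed it only through their head level, so the count is a description. The median log2 fold change of the tested panel was 2.54, beside 0.32 over all tested contigs. Panel contigs took 0.233% and 0.248% of all reads in the head libraries and 2.38% and 2.37% in the CNS libraries.

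**Figure D2:**
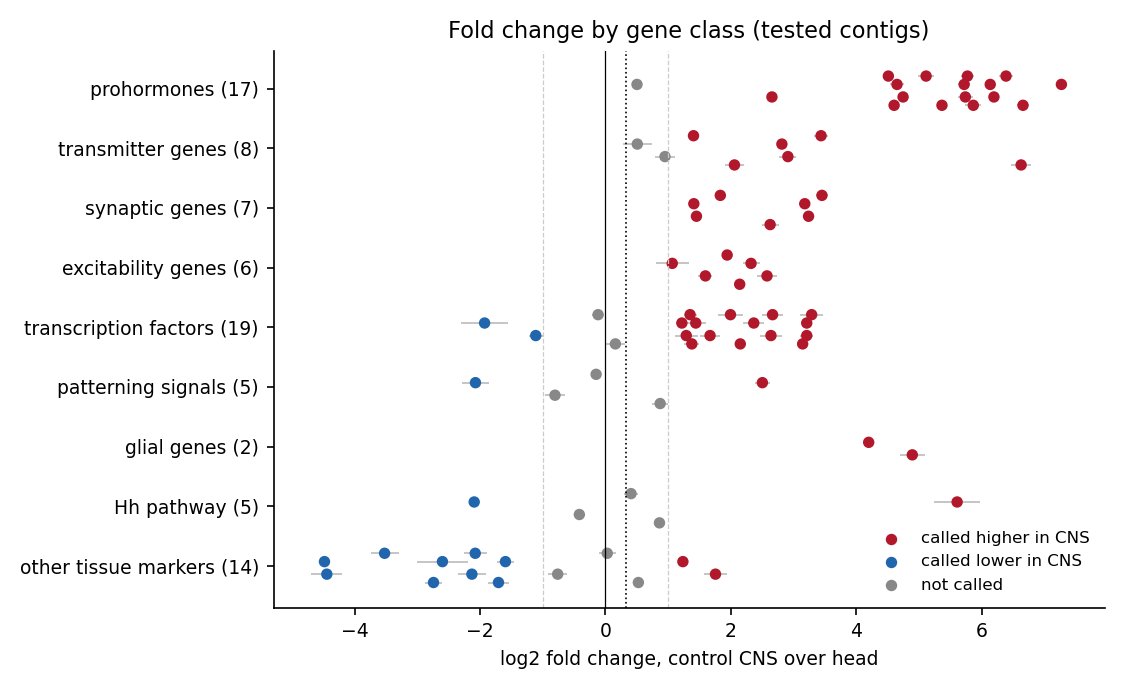
Log2 fold change of control CNS over head (x) for each tested contig by gene class (rows, number of tested contigs in brackets), with bars for the standard error. Red contigs were called higher, blue lower and gray neither, the dashed lines mark 2-fold and the dotted line the median of all tested contigs, 0.32. Prohormones reach furthest to the right, up to 7.27.

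The peptide prohormones had the largest median change of the panel classes. Of 17 contigs in this class, which counts the processing enzyme *pc2*, 16 were called higher, and the median log2 fold change was 5.72. *ppl-1*, a pyrokinin-like prohormone, had 26.6 and 25.5 normalized reads in head and 4007 and 4344 in CNS. Head and CNS libraries were far apart, and its log2 fold change was 7.27 ± 0.09 (SE, limma adjusted p = 9.7e-06). *grh-1*, annotated as similar to gonadotropin-releasing hormone, had 32.5 and 30.8 in head and 3180 and 3409 in CNS, a log2 fold change of 6.66. *ilp-1*, an insulin-like peptide, had 54.6 and 59.0 in head and 4393 and 5317 in CNS, a log2 fold change of 6.39. These 3 were the prohormones with a head mean under 100, and the groups were far apart in each.

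The prohormones with higher head levels changed by a smaller factor. *npp-2* had 1406 and 1691 normalized reads in head and 39056 and 38386 in CNS, a log2 fold change of 4.65, and *ppp-1*, of the pedal peptide type, had the smallest change of the 15 prohormones that were called, 4.51. Leaving out *pc2*, the other 16 contigs drew 0.0421% and 0.0479% of all reads in the head libraries and 1.42% and 1.41% in the CNS libraries. *pc2*, which encodes the convertase that cuts such precursors, had 7058 and 7363 in head and 45389 and 45442 in CNS. Its log2 fold change of 2.66 was below that of every called prohormone. *npp-18* was the one prohormone that was not called. Its levels of 259 and 259 in head and 359 and 376 in CNS did not overlap, but its log2 fold change was 0.50, or 0.18 above the median contig.

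Genes for small transmitters differed widely in the size of their change. Of 9 contigs, 8 were tested and 6 were called higher, with a median of 2.44 among the tested. *tbh* and *th* had a head mean under 100 normalized reads and passed the minimum only through their CNS level. *tbh*, which encodes the enzyme that makes octopamine from tyramine, had 31.0 and 23.8 normalized reads in head and 2619 and 2956 in CNS, a log2 fold change of 6.63 ± 0.16 (SE, limma adjusted p = 2.5e-05). *gd*, for glutamate decarboxylase that makes GABA, changed by 3.44, *th*, for tyrosine hydroxylase at the start of dopamine synthesis, by 2.91, and *chat*, for the enzyme that makes acetylcholine, by 2.81 on the log2 scale. *VAchT*, which loads acetylcholine, had 497 and 523 in head and 1850 and 2439 in CNS, a log2 fold change of 2.06 beside 2.81 for *chat*, a difference that was not tested. *VGluT*, which loads glutamate, changed by 1.40.

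The tested transmitter contigs that were not called were *tph* and *aadc*. *tph*, for tryptophan hydroxylase, had 167 and 161 normalized reads in head and 186 and 294 in CNS, with a log2 fold change of 0.51 ± 0.23 (SE, limma adjusted p = 0.098). The CNS libraries lay above the head libraries but differed from each other by more than CNS library a differed from head. *aadc*, for the decarboxylase that acts after both *tph* and *th*, had 112 and 113 in head and 194 and 246 in CNS. Its log2 fold change of 0.95 missed 2-fold, and reached 1.12 without CNS library a. The related contig *aladc* was below the minimum, at 36.9 and 34.3 in head and 105 and 131 in CNS.

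All 7 synaptic contigs were called higher in CNS. Their log2 fold changes ran from 1.41 for *syn* to 3.45 for *syt1-1*, with a median of 2.63. *syt1-1*, one of 3 contigs for synaptotagmins, the calcium sensors of vesicle release, had 1476 and 1614 normalized reads in head and 15705 and 18207 in CNS. The other synaptotagmins changed by 3.18 for *syt1-2* and 3.24 for *syt11*. *syngr*, for the vesicle protein synaptogyrin, changed by 2.63, and *SNAP25*, for a protein of the fusion machinery, by 1.83. *unc-13*, for a vesicle priming factor, had 319 and 347 in head and 917 and 907.3 in CNS, a log2 fold change of 1.45.

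The 6 contigs of excitability and the neuronal cytoskeleton were all called higher. A voltage-gated potassium channel changed by 2.58, a T-type calcium channel by 2.32, *tau* by 2.14, a voltage-gated sodium channel by 1.94 and a G protein alpha subunit by 1.59 on the log2 scale. The potassium channel had a head mean of 54.5 normalized reads and passed the minimum only through its CNS level. The sodium/potassium ATPase had 643 and 672 normalized reads in head and 1053 and 1802 in CNS, a log2 fold change of 1.07 ± 0.26 (SE, limma adjusted p = 0.014). This was the smallest change among the panel contigs called higher. Its call was lost in 7 of 9 alternatives, among them edgeR (0.81), DESeq2 (0.79), scaling to the median contig (0.74) and leaving out CNS library b (0.68). The other 5 contigs of this class kept their call in all 9.

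Transcription factors had a smaller median change and calls in both directions. Of 24 contigs, 19 were tested, 15 were called higher and 2 lower, and the median of the tested was 1.67. A head mean under 100 normalized reads was found for 7 of the tested factors. *e22/23*, a basic helix-loop-helix factor, had 36.9 and 50.2 in head and 416 and 443 in CNS, a log2 fold change of 3.29 ± 0.19 (SE, limma adjusted p = 0.0001). *pax6A* and *otxB*, homologs of factors used in eye and forebrain development of other animals, both changed by 3.21, and *Tcf/Lef-1*, a nuclear effector of Wnt signaling, by 3.14. *otxB* had 62.7 and 64.2 in head and 614 and 578 in CNS. *otxA*, its relative, had 192 and 209 in head and 482 and 454 in CNS, a log2 fold change of 1.22 that dropped to 0.90 relative to the median contig. *lhx1/5-1* likewise dropped from 1.29 to 0.97. *coe*, a regulator of neuronal fates, had 213 and 296 in head and 1296 and 1301 in CNS and changed by 2.37.

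The factors called lower in CNS were *zic-1* and *prep*. *zic-1* encodes a zinc finger protein of the anterior pole, and had 180.0 and 204 normalized reads in head and 34.4 and 71.6 in CNS, a log2 fold change of -1.93 ± 0.37 (SE, limma adjusted p = 0.006). It passed the minimum only through its head level, and its change ran from -2.44 to -1.41 with 1 library left out. *prep*, a homeodomain factor of the head, had 838 and 864 in head and 359 and 432 in CNS, a log2 fold change of -1.11 that shrank to -0.98 without CNS library a. *nkx6* at 0.16 and *cas* at -0.12 were not called. The other 5 factors were below the minimum. Of these, *soxB-2* had 14.8 and 7.92 in head and 106 and 101 in CNS, *foxD* 5.90 and 11.4 against 58.2 and 72.8, and *glass*, a factor of photoreceptor neurons in flies, 2.21 and 1.76 against 48.7 and 63.0. In these 3 the CNS libraries lay well above the head libraries. *pax6B* and *FoxQ2* stood between 16.05 and 49.9 in all 4 libraries.

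The secreted and membrane signals of head patterning did not move together. *net2* (*netrin 2*), a guidance cue of the neuropil, had 228 and 233 normalized reads in head and 1191 and 1444 in CNS, a log2 fold change of 2.50. *wnt2*, a ligand expressed at the anterior of the animal, had 276 and 315 in head and 58.2 and 82.7 in CNS and changed by -2.07 ± 0.21 (SE, limma adjusted p = 0.00056). It passed the minimum only through its head level. *sFRP-2*, a secreted Wnt inhibitor, had a log2 fold change of -0.80 and *ndl-3* one of -0.15. *ndk*, an FGF receptor-like gene of the head, had 938 and 988 in head and 1569 and 1984 in CNS, a log2 fold change of 0.87 that reached 1.04 without CNS library a. *ndl-4* was below the minimum, as was *tyr*, the last contig of the panel, which encodes the pigment enzyme tyrosinase.

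**Figure D3:**
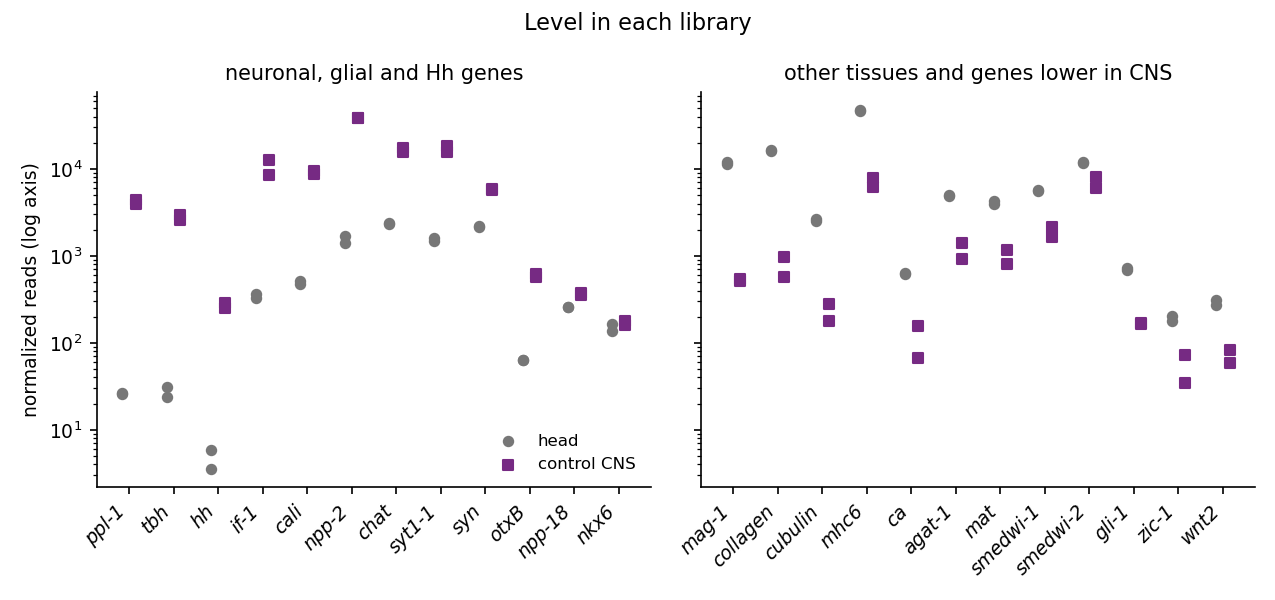
Normalized reads (y, log axis) of selected contigs in each head library (gray circles) and each control CNS library (purple squares). In the left panel *ppl-1*, *tbh* and *hh* show the widest gaps while *nkx6* lies at about the same level in all 4 libraries, and in the right panel *mag-1* and *collagen* show the widest gaps in the opposite direction.

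The glial contigs *if-1* and *cali* were singled out by the study from its Hh-dependent list, in part for being higher in ganglia than in head in these same libraries, so their values are a description. *if-1* encodes an intermediate filament protein and *cali* a protein annotated as similar to a mouse protocadherin. *if-1* had a mean of 347 ± 21.0 normalized reads (SD, n = 2) in head and 8455 and 12607 in CNS, a log2 fold change of 4.89 ± 0.20 (SE). *cali* had 474 and 519 in head and 8705 and 9549 in CNS, a log2 fold change of 4.20 ± 0.08.

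Of 7 contigs of the Hh pathway, 5 were tested, 1 was called higher and 1 lower. Over all tested contigs 32.7% were called higher and 22.2% lower, so these counts are only a description. Hedgehog is a secreted ligand that binds Patched, which frees Smoothened and acts through Gli factors held back by Sufu. The ligand *hh* had 8 and 4 reads in the head libraries, or 5.90 and 3.52 normalized reads, and 291 and 253 normalized reads in CNS. Its log2 fold change was 5.61 ± 0.37 (SE, limma adjusted p = 0.00015), and it passed the minimum only through its CNS level. *gli-1* moved the opposite way, at 730 and 696 in head and 167 and 165 in CNS, a log2 fold change of -2.09 ± 0.08 (SE, limma adjusted p = 5.1e-05). The receptor *ptc* had 467 and 462 in head and 344 and 352 in CNS and was not called, at -0.42. *smo*, for Smoothened, was at 0.86 and *sufu* at 0.41, neither called. *gli-3* was below the minimum, at 53.9 and 55.4 in head and 61.8 and 82.7 in CNS. *gli-2* had 4.43 and 3.52 in head and no read in either CNS library, and both groups are too close to the limit of 3 reads per library for a fold to be given.

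Markers of other tissues were mostly lower in CNS, but not for every tissue. Of 20 contigs, 14 were tested, 9 were called lower and 2 higher, with a median log2 fold change of -1.89. Over all tested contigs 22.2% were called lower and 32.7% higher. The summed level of all 20 was 106201 and 107378 normalized reads in the head libraries and 20391 and 25389 in the CNS libraries. Both CNS libraries lay below both head libraries for 10 of the 14, where 38.8% of tested contigs did so. In bulk tissue, fewer cells of a type and less RNA per cell cannot be told apart.

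The remaining level differed between tissues. *mag-1*, a marker of the marginal adhesive gland at the body edge, had 11559.7 and 11921 normalized reads in head and 513 and 538 in CNS, 4.48% of the head level. *collagen*, made by muscle in planarians, stood at 4.75% of the head level and *cubulin*, a reabsorption receptor of the protonephridia, at 8.90%. *mhc6*, a myosin heavy chain of the pharynx, kept 15.1%, with 46267 and 47725 in head and 6257 and 7901 in CNS. *ca*, a protonephridial carbonic anhydrase, kept 17.9%, and *pou2/3*, a factor of the same organ, 30.5%. *agat-1*, of the postmitotic descendants of neoblasts in the parenchyma, kept 23.4%. The neoblast gene *smedwi-1*, a Piwi family member, had 5746 and 5596 in head and 1641 and 2149 in CNS, 33.4%. *smedwi-2*, another Piwi gene, kept 59.7% and was not called, with a log2 fold change of -0.76 that passed 2-fold only when taken relative to the median contig (-1.08) or with a count model.

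The 3 gut contigs went different ways. *mat* had 3952 and 4278 normalized reads in head and 1165 and 816 in CNS, a log2 fold change of -2.08 ± 0.18 (SE, limma adjusted p = 0.00035). *mboat7*, for a lipid acyltransferase, had 500.2 and 515 in head and 1169.7 and 1223 in CNS, a log2 fold change of 1.24 that fell to 0.91 relative to the median contig and was then not called. *mboat2*, of the same enzyme family, was at 0.53. No gut marker was near 0 in the ganglia.

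Of the eye contigs, 1 was tested. *distal-less* had 72.3 and 59.0 normalized reads in head and 248 and 200 in CNS, a log2 fold change of 1.76 ± 0.19 (SE, limma adjusted p = 0.00069). It passed the minimum only through its CNS level. The other 3 were below the minimum. *sp6-9* had 40.6 and 37.8 in head and 92.6 and 109 in CNS, *tyr*, of the pigment cup, 78.2 and 72.2 against 11.9 and 16.05, and *ovo*, a defining gene of eye cells, had at most 4.40 in any library and no read in CNS library b. The tail contigs *wntP-1* and *wntP-2* and the pharynx contig *wntP-3* were below the minimum as well. *sine oculis 1/2-2*, listed for the protonephridia, stood at 111 and 116 in head and 119 and 114 in CNS, a log2 fold change of 0.03.

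Of the broad markers, *gapdh* was at -0.11, with 49881 and 50624 normalized reads in head and 43308 and 49985 in CNS. Relative to the median contig it was at -0.43. On a scale set over all 8 libraries, the 6 CNS libraries ran from 70.9% to 90.6% of its mean head level. *beta-catenin*, an adhesion and Wnt pathway protein, was not even between tissues. It had 3829.9 and 3806 in head and 1204 and 1201 in CNS, a log2 fold change of -1.67 ± 0.06 (SE, limma adjusted p = 4.6e-05).

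Of the 30 contigs that the study listed as Hh-dependent in ganglia, all were tested. In CNS 9 were called higher, 8 lower and 13 neither way, near the shares of all tested contigs (32.7% higher and 22.2% lower). Their median log2 fold change was 0.07, beside 0.32 over all tested contigs. The list was picked with the same control CNS libraries and is not independent of them. The largest rise was in dd_Smed_v4_16532_0_1, a contig with no similarity to known proteins, at 8.12 and 6.16 normalized reads in head and 2268 and 2112 in CNS, a log2 fold change of 8.08. A second such contig, dd_Smed_v4_13510_0_1, changed by 7.54. Both had a head mean under 100 normalized reads and passed the minimum only through CNS. A contig annotated as prostaglandin D synthase changed by 3.27, at 830.0 and 811 in head and 6925 and 9070.3 in CNS. The largest fall was in a contig annotated as SCO-spondin-like, a secreted matrix protein, at 32897 and 33488 in head and 1524 and 1468 in CNS, a log2 fold change of -4.47. A fibrillin-like contig changed by -2.34, the calcium-binding *reticulocalbin-1* by -2.05, and both peptidyl-prolyl isomerases, enzymes of protein folding, by -2.04 and -1.93. With the RNAi ganglia added, 5 of the 30 had all 6 CNS libraries above both head libraries, where 46.5% of tested contigs did. Another 5 had all 6 below, where 37.8% did, and neither peptidyl-prolyl isomerase was among them. The highest CNS library was a median of 8.15 times the lowest, with a range from 2.12 to 242. The list was picked for differences between these ganglia, so this range was partly set by the choice.

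*prog-1*, which is in the Hh-dependent list, and *agat-1*, genes of early and late epidermal progenitors in planarians, were called in opposite directions. *prog-1* had 4062 and 4396 normalized reads in head and 9053 and 8600.0 in CNS, a log2 fold change of 1.06 ± 0.08 (SE, limma adjusted p = 0.00019). *agat-1* had 5048 and 4939 in head and 913 and 1426 in CNS, a log2 fold change of -2.13. The rise of *prog-1* was under 2-fold relative to the median contig, at 0.74, while *agat-1* was lower on every scaling run. The call of *prog-1* was lost in 4 of 9 alternatives. Every contig of the Hh-dependent list varied at least 2.12-fold over the 6 CNS libraries, so the contrast is a description.

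The 4 libraries of RNAi ganglia, put on 1 scale with the other 4, gave further dissections of the same strain. Of the 62 tested panel contigs, 54 had all 6 CNS libraries above both head libraries, where 46.5% of tested contigs did, and 4 had all 6 below. Among the 14 tested markers of other tissues, 10 had all 6 CNS libraries below both head libraries, where 37.8% of tested contigs did, and 3 had all 6 above. The ganglia share strain, feedings and RNA input, so these counts do not separate tissue from those. The 6 CNS libraries include both control libraries of the main comparison. Of the 62 panel contigs, 13 passed the minimum only through control CNS. Both counts were therefore partly set in advance and are a description. The highest of the 6 CNS libraries was a median of 1.46 times the lowest over the tested panel contigs, with a range from 1.14 to 3.47. *ppl-1* ran from 2345 to 3829 over the 6 CNS libraries on this scale, with 25.7 and 24.7 in head, and *syt1-1* from 13805 to 16101, with 1429.9 and 1559 in head. The widest range was that of *npp-18*, whose CNS libraries ran from 137 to 478 around head levels of 251 and 250.0. *zic-1* ran from 28.1 to 75.3, *wnt2* from 33.6 to 72.9 and *ndk* from 1145 to 2278.

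Over the 14 tested markers of other tissues, the highest CNS library was a median of 1.90 times the lowest, with a range from 1.16 to 6.05. That these lists differ in range was not tested. *mag-1* ranged from 1.85% to 11.2% of the mean head level and *agat-1* from 7.59% to 26.0%. *smedwi-1* ranged from 14.2% to 82.6%, with both *hh(RNAi)* libraries lowest, at 776 and 787 normalized reads, and both *ptc(RNAi)* libraries highest, at 4529.7 and 2929. *collagen* stayed between 2.78% and 5.40% and *cubulin* between 6.28% and 9.93%. The genes targeted in the RNAi ganglia and the dissection differ together here, and their parts were not tested.

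**Figure D4:**
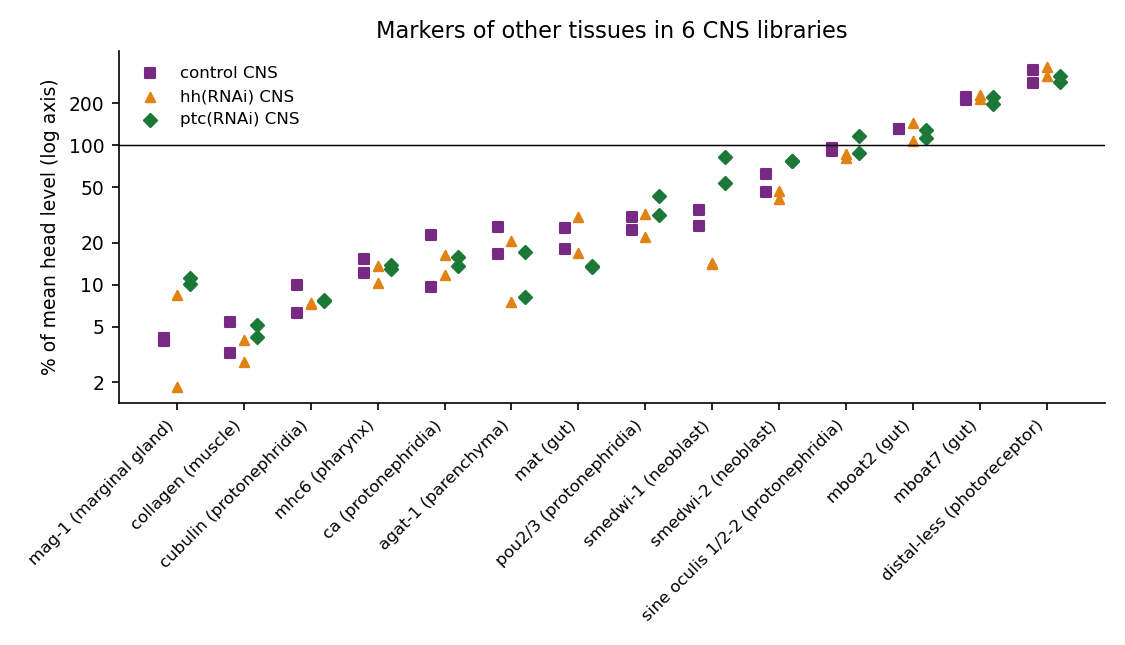
Level of the 14 tested markers of other tissues in each of the 6 CNS libraries as a percentage of the mean head level (y, log axis, line at 100%), on the scale set over all 8 libraries. *mag-1* and *collagen* lie lowest, *smedwi-1* spreads from 14.2% to 82.6% between RNAi groups, and *mboat2*, *mboat7* and *distal-less* lie above the head level in all 6.

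A few contigs were nearly restricted to 1 sample type. Among tested contigs, 14 had at most 3 reads over both head libraries, 5 of them none, and 7 had at most 3 reads over both control CNS libraries, 2 of them none. None of these has a gene name in the lists used here. The largest fitted rise was in dd_Smed_v4_14543_0_1, with 2 and 0 reads in the head libraries and 66395 and 28238 normalized reads in CNS. Its CNS level was 64133 times the head level (95% exact Poisson interval from 17754 to 529568, for the counting error of the head reads only). The second largest was in dd_Smed_v4_8319_0_1, with 1 read in each head library and 27895 and 11602 normalized reads in CNS. In both contigs CNS library a was more than 2-fold above CNS library b, by 2.35 and 2.40 times, and this was so for 9 of the 14.

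On the scale set over all 8 libraries, dd_Smed_v4_14543_0_1 had 14449.5 and 16056 normalized reads in the *hh(RNAi)* ganglia and 4667 and 10277 in the *ptc(RNAi)* ganglia, beside 58361 and 24892 in the control ganglia. All 4 RNAi libraries lay above both head libraries for all 14 contigs. The 14 were picked for at most 3 reads in head and passed the minimum only through control CNS. This count was therefore largely set by the choice and is a description. Since the ganglia are of the sexual strain and the heads of the asexual strain, strain and tissue cannot be told apart for these contigs. In the other direction, dd_Smed_v4_238_0_1 had 659.6 and 622 normalized reads in head and no read in either control CNS library, at least 176-fold lower against a floor of 3 reads per library. A contig with the same identifier number, dd_Smed_v4_238_1_1, had 97676 and 91522 in head and 5801 and 14083 in CNS, and reads of 1 may have been assigned to the other. dd_Smed_v4_238_0_1 was called with all 4 libraries (limma adjusted p = 7.2e-05), but not when head library a or head library b was left out. dd_Smed_v4_518_0_1 had 3268 and 3746 in head, 18 reads in CNS library a and none in b.

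The duplicates of the ganglia parted most in contigs that were lower in CNS. Over all tested contigs the median absolute log2 difference between libraries a and b was 0.15 in control CNS and 0.080 in head. Among the 272 contigs with a log2 fold change under -4 it was 0.97 in control CNS and 0.083 in head. Among the 299 contigs over 4 it was 0.11 in control CNS and 0.21 in head. The fold change is computed from the same libraries, so these values are a description. Of the 272 contigs that were lowest in CNS, 77.9% were lower in CNS library b than in a, beside 47.9% of all tested contigs. The named markers of other tissues did not share this direction. Of the 9 that were called lower, 8 were higher in CNS library b, *collagen* at 578 and 963 and *ca* at 66.5 and 156 normalized reads among them, and the exception was the gut contig *mat*. The neuronal panel differed less between these libraries, with a median absolute log2 difference of 0.11 in CNS and 0.11 in head. The cause of this spread was not tested.

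**Figure D5:**
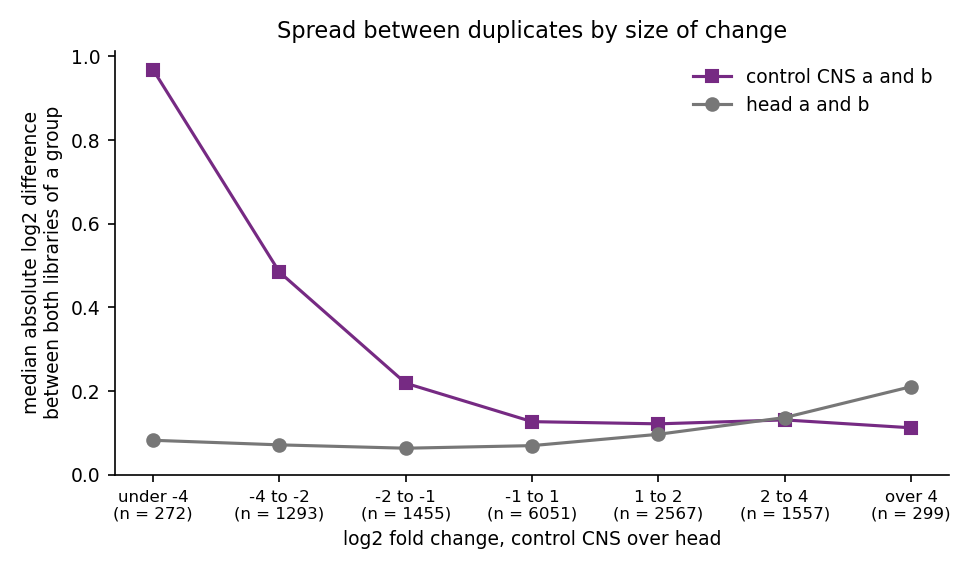
Median absolute log2 difference between both libraries of a group (y) for tested contigs binned by log2 fold change of control CNS over head (x, number of contigs in brackets), in control CNS (purple) and head (gray). The CNS duplicates differ by 0.97 in the lowest bin and by 0.11 in the highest, and the head duplicates by 0.083 and 0.21.

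Calls were found at every level of expression. Among the 3284 contigs averaging 100 to 200 normalized reads, 36.4% were called higher and 25.1% lower, and among the 72 over 16000 these shares were 20.8% and 29.2%. Contigs whose identifiers share the first number after the assembly version may be related sequences and share reads, since a read was assigned to its best single alignment. Such numbers with more than 1 tested contig were 1604 of 10837, and 27 of them held calls in both directions, against 422 with at least 2 contigs called higher and none lower and 335 with at least 2 called lower and none higher. The prohormone contig dd_Smed_v4_5133_0_1 and the CNS marker contig dd_Smed_v4_5133_0_2 form such a pair, with log2 fold changes of 6.19 and 6.33, as do both contigs of *tph*, so their values may not be independent.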

How the data were processed

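Polyadenylated RNA of head fragments and cephalic ganglia was sequenced on an Illumina instrument. According to the study's methods, Bowtie2 aligned the reads, trimmed at the 5′ end, against the planarian transcriptome assembled in Dresden and kept 1 best alignment for each, and Samtools gave the counts. A read from near-identical contigs is therefore given to 1 of them. The methods name DESeq2, without a version.

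The authors deposited 3 tables, whose signal columns hold the mean normalized read count of both libraries of each group, with no unit of length. The 12 columns of fold changes, log2 fold changes, p-values and adjusted p-values in the deposited tables are the authors' comparisons and were not used, nor were the 3 columns with the mean over both groups. In a group mean, each library contributes its whole reads times a fixed step, so the reads of both libraries could be solved for in 100% of means above 0. Control CNS reads recovered from both RNAi tables were identical in all 38634 contigs and those of the hh table were used. In the head group 62 contigs allowed more than 1 pair of reads, and the most even pair was taken. These include *mhc6*, *gapdh* and 2 of the Hh-dependent contigs, those annotated as SCO-spondin-like and zonadhesin, for which the next pair differed by at least 1.22 on the log2 scale. The group mean is not affected. Depth ran from 11479783 to 18932854 reads on contigs over all 8 libraries, and recovered libraries carry letters since the means do not show which replicate is which.

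Contigs averaging at least 100 normalized reads over both groups were tested with limma 3.58.1 (R 4.3.3), on log2(normalized reads + 1), with the prior variance following mean expression. The pseudocount of 1 understates the fold changes of low contigs. Benjamini-Hochberg adjustment covered every tested contig. A call required both a change above 2-fold and an adjusted p below 0.05. limma was chosen as the main test because the deposited values are means, not counts, although whole reads could be recovered from them. Alternatives were on the recovered reads edgeR 4.0.16, by its quasi-likelihood test with TMM factors, and DESeq2 1.42.0, other minimums, thresholds and pseudocounts, scaling to the median contig, a fit with all 4 groups, and leaving out each library. Scripts were tested on simulated data. Other computations used Python 3.11.15, pandas 2.3.3 and numpy 2.4.6, and plots were made in matplotlib 3.10.9. Gene names and classes come from the study's lists. Named were the list contigs, with values for the largest and smallest change in each class and for those against its direction, and at most 2 unnamed contigs in each direction. The comparison, its members and the lists were chosen with earlier results of these data known.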

Additional observations from a re-analysis of the deposited data

How the results depend on the processing

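Of 116 tested list contigs, 89 kept their direction and call under all 9 alternatives run for each, 20 changed their call and 7 their direction in at least 1. The contigs called higher and lower numbered 7498 and 10427 with no minimum for expression, 707 and 600 when the minimum was raised to 1000, and 1854 and 1555 at more than 4-fold. Leaving out 1 library gave 4338 to 4498 contigs higher and 2855 to 3044 lower, 50 to 53 panel contigs higher and 9 other tissue markers lower. edgeR called 3465 contigs higher and 3667 lower and DESeq2 3423 and 3696, each with its own model and scaling, and scaling to the median contig alone gave 3417 and 3711.

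The reversals were in contigs that were not called, with log2 fold changes of at most 0.32. *nkx6* went to -0.16 relative to the median contig, -0.15 in edgeR and -0.17 in DESeq2, and the second *tph* contig to -0.0046 relative to the median. *sine oculis 1/2-2* went to -0.29 relative to the median, -0.28 in edgeR, -0.29 in DESeq2 and -0.11 with all 4 groups, and ran from -0.0025 to 0.061 with 1 library left out. Among Hh-dependent contigs, dd_Smed_v4_7131_0_1 went to -0.32, -0.30, -0.32 and -0.14 in the same order (-0.13 to 0.13 with 1 library left out). dd_Smed_v4_2169_0_1 went to -0.047 relative to the median, -0.0073 in edgeR and -0.028 in DESeq2 (-0.011 to 0.56), and dd_Smed_v4_1530_0_1 to -0.18, -0.049 and -0.071 (-0.46 to 0.74). dd_Smed_v4_750_0_1 went to -0.029 relative to the median (-0.078 to 0.66). Scaling to the median contig subtracts 0.32 from every log2 fold change, so a smaller positive value turns negative by that step alone. The cause of the other reversals was not tested.

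No paired analysis was possible because the recovered libraries carry no replicate number. With 2 libraries in each group, leaving 1 out assumes that the lone library varies like the other group. Depth limits the contigs under the minimum, whose values were given without a test.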
